A study of Mus musculus with 29 samples.

Results

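The genes Pax6, Rax, Six3, Six6, Lhx2, Sox2, Sox9, Atoh7 and Neurog2 encode transcription factors of the retinal progenitor cell, the dividing cell from which the neurons and the Müller glia of the retina arise. They were followed in whole mouse retina of 5 strains at 2 ages. Members were chosen by name, through the gene symbols that the array annotation gives to its probe sets. A probe set is a group of short probes that together report 1 transcript. The 9 genes, of 18194 with a probe set of their own, had 18 probe sets among 45101 on the array. Pax6 had 5, Six3 and Sox9 had 3 each, Atoh7 had 2, and the other genes had 1 each. None of the 18 shared its annotation with another gene.

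RNA from retinas of NOD.NON-H2-nb1, RD7, CAST/EiJ, C57BL6/J and AKR/J mice was measured before birth, at E18.5, and in the young adult, at P30.5 (days of embryonic and of postnatal life), on 29 Affymetrix arrays in 10 groups. There were 3 arrays in every group but 1, the E18.5 group of AKR/J with 2. The RNA on an array was a pool of 10 retinas, and 15 mice per strain were used, so that the tests measure the spread between pools. It is not stated whether both retinas of a mouse went into the same pool. C57BL6/J is the reference strain of the study, AKR/J and NOD.NON-H2-nb1 are inbred strains of other ancestry, and CAST/EiJ is derived from wild mice of another subspecies. For RD7 the labels name the strain only. The rd7 allele is known as a mutation of the photoreceptor nuclear receptor gene Nr2e3, and the background on which these mice carried it is not given in the sources used here. No treatment is named for any group.

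The retina forms from the eye field, a patch of the anterior neural plate in which Rax, Pax6, Six3, Six6 and Lhx2 are expressed together. Their homeodomain proteins, with the SOX proteins Sox2 and Sox9, are known to keep progenitors in a dividing, multipotent state. The basic helix-loop-helix factors Atoh7 and Neurog2 appear later, in progenitors that are about to leave the cell cycle, and Atoh7 is required for ganglion cells. Several members are also known in cells of the mature retina, Pax6 in amacrine and ganglion cells, Six3 and Six6 in inner retinal neurons, Sox2 and Sox9 in Müller glia, and Rax in Müller glia and photoreceptors. At E18.5 many cells of the mouse retina still divide, and by P30.5 the retina is mature.

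Sequences around the transcription start, from 250 bases before it to 50 after it, were at hand for 7 of the 9 genes, in 9 windows of 300 bases (RefSeq, GRCm38.p6). Promoters of 3 genes are shown, Atoh7 and Neurog2 because their signals fell most with age, and Six6 because its signal differed between strains. Capitals mark the E-boxes in Atoh7 (CANNTG, the letters that helix-loop-helix factors bind) and the CCAAT boxes in Six6 (CCAAT or, on the other strand, ATTGG). The Atoh7 window lies at chr10:63099535-63099834, the Neurog2 window at chr3:127632886-127633185 and the Six6 window at chr12:72939632-72939931, each on the plus strand.
Atoh7: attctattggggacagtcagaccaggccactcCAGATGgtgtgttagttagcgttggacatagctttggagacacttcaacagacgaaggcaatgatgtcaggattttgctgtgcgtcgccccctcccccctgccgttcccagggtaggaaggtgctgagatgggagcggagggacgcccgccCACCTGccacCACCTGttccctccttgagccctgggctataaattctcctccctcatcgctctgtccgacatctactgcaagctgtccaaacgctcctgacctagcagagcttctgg
Neurog2: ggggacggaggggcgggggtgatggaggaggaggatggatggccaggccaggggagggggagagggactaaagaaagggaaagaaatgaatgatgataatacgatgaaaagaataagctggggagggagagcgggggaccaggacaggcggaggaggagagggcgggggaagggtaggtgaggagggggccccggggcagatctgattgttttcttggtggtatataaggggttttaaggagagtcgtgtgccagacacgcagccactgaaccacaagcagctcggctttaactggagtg
Six6: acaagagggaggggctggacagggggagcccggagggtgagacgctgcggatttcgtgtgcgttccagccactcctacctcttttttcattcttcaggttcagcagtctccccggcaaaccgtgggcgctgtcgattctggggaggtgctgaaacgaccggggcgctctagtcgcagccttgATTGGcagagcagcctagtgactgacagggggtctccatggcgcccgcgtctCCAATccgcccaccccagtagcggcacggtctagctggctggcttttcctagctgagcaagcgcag

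The Atoh7 window held 3 E-boxes, CAGATG at 218 bases before the start and CACCTG at 67 and 57 bases before it. Neurog2, the other helix-loop-helix gene, held none, and neither did Six6. Across 32851 promoter windows of the mouse, 72.3% held at least 1 E-box on either strand. Six6 held 2 CCAAT boxes, at 68 and 16 bases before the start, and 37.4% of all windows held at least 1. The Six3 window held 3 of them, and the windows of Atoh7 (not marked above) and Sox2 and a window of Pax6 held 1 each. Neurog2 held none of the 4 motifs searched, which were the E-box, the CCAAT box, the homeodomain motif TAATTA (in 5.3% of all windows) and the Sox core ACAANG (in 41.2%). TAATTA was in 0 of the 9 windows of these genes. These are matches of letters and not binding sites.

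The deposited values came in 2 forms. Log2 RMA values, a robust average over the probes of a set, covered 25444 probe sets and 8 of the 18 of these genes. MAS5 signals, an older summary that subtracts the signal of mismatched probes, covered all of them. The RMA values were used wherever they existed, and log2 MAS5 signals for the other 10 probe sets, among them every probe set of Six6, Lhx2, Sox2 and Neurog2. Array medians lay between 6.74 and 6.95 in RMA and between 6.52 and 7.08 in log2 MAS5, and arrays of a group correlated at 0.931 to 0.991. Levels are comparable between arrays for 1 probe set and not between probe sets. A probe set was called when limma gave an adjusted p under 0.001 and a difference of at least 2-fold, the thresholds of the study, and "fell" and "rose" are used for calls only.

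The arrays at E18.5 differed in RNA of tissue around the retina. The mean log2 MAS5 signal of 9 skeletal muscle genes was 5.48 to 5.71 in C57BL6/J, 5.77 to 11.3 in NOD.NON-H2-nb1, 6.97 to 12.2 in RD7, 7.67 to 11.4 in CAST/EiJ and 12.1 to 12.3 in AKR/J, and it was 3.87 to 6.29 on every array at P30.5. It was over 9 on 6 arrays, both AKR/J arrays, RD7 replicates 2 and 3, CAST/EiJ replicate 1 and NOD.NON-H2-nb1 replicate 1. Pigment epithelium genes at E18.5 had log2 means of 6.91 to 7.73 in C57BL6/J and 7.96 to 9.48 in NOD.NON-H2-nb1. In the other strains these were 9.36 to 10.3, and at P30.5 they were 9.30 to 11.1 over all strains. Means of lens genes were 3.33 to 13.9 at E18.5 and 3.73 to 14.4 at P30.5. The mean log2 signal of the rod markers, as a check on the tissue, was 14.1 to 14.8 at P30.5 in all strains. At E18.5 it was 8.60 to 9.27 in C57BL6/J and 6.48 to 8.34 in the other strains, without overlap. Of 6 rod genes, 3 were called lower than in C57BL6/J at E18.5 in AKR/J, and 3 in CAST/EiJ. The surrounding tissue covariate held muscle, mesenchyme and surface epithelium genes, and no pigment epithelium or lens genes. What RNA of pigment epithelium or lens adds to the values was not tested. Age calls of the 9 genes lost or gained with this covariate, or without the 6 arrays high in muscle RNA, are named beside the results.

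Between E18.5 and P30.5 all 9 genes fell in NOD.NON-H2-nb1 and C57BL6/J, 7 in RD7 and CAST/EiJ, and 5 in AKR/J. A gene was counted here when at least 1 of its probe sets was called. With 1 probe set per gene, from RMA where present, 9 fell in C57BL6/J, 8 in NOD.NON-H2-nb1, 7 in CAST/EiJ, 6 in RD7 and 5 in AKR/J. The shares over the whole array were counted by probe set and not by gene. None rose in any strain, nor did any of the 18 probe sets reach an unadjusted p under 0.05 in that direction (limma). By probe set, 12 of 18 fell in C57BL6/J, 8 in RD7, 11 in NOD.NON-H2-nb1, 8 in CAST/EiJ and 6 in AKR/J. Over all probe sets the share that fell was 9.76%, 9.40%, 8.66%, 7.96% and 8.39% in RMA, in the same order of strains, and 5.55%, 4.94%, 5.35%, 5.23% and 4.37% in MAS5. Between 1892 and 2123 probe sets per strain rose in RMA and between 2501 and 2707 in MAS5. The median change of the 18 probe sets was -1.37, -1.23, -1.35, -1.11 and -0.83 on the log2 scale, and the median over all probe sets was between -0.04 and 0.14. Both probe sets of Atoh7 and those of Neurog2, Lhx2 and Sox2 fell in all 5 strains, 5 of 18, against 4.24% of all probe sets in RMA and 2.44% in MAS5. In bulk tissue, fewer cells of a type and less RNA per cell cannot be told apart.

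**Figure D1:**
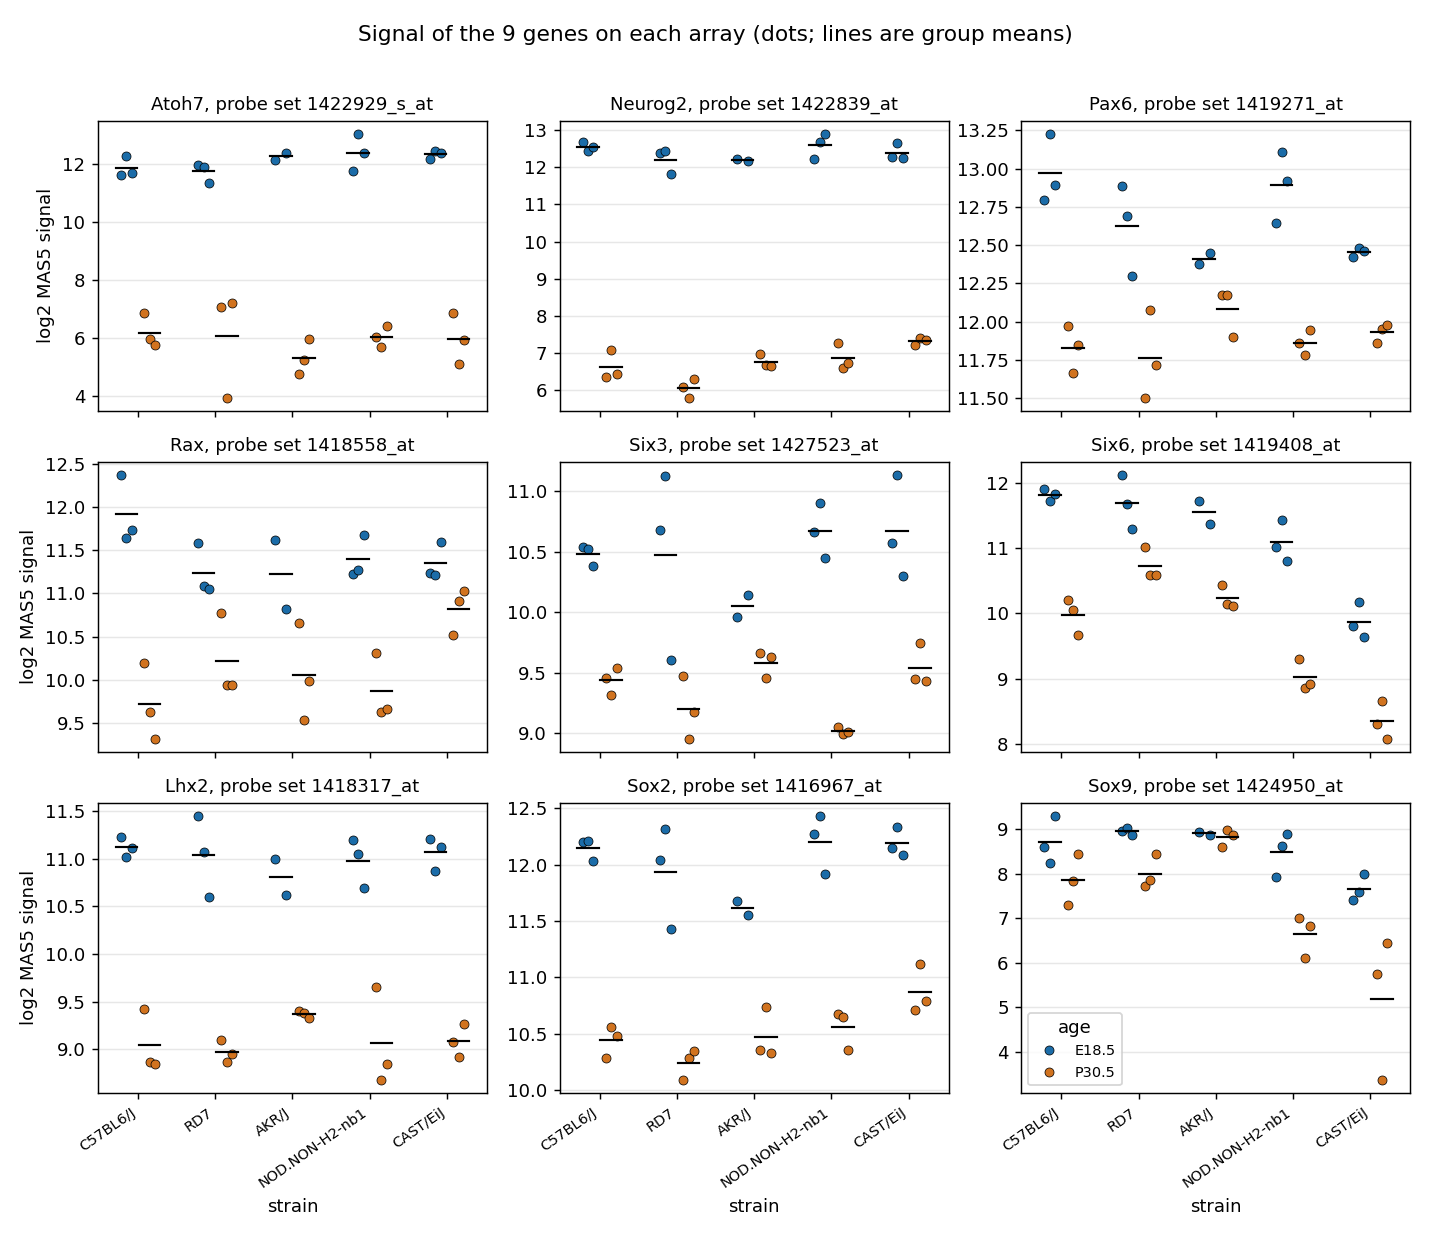
Log2 MAS5 signal of each gene's highest probe set on each of the 29 arrays, by strain on the x axis and by age in colour, with black lines for group means. In Atoh7, Neurog2, Lhx2, Sox2 and Pax6 the ages do not overlap over all arrays, and in Six6 the 3 CAST/EiJ arrays lie below those of the other strains at each age. The y axes do not start at 0 and differ between panels.

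Atoh7, the gene on which ganglion cells depend, and Neurog2 had the largest falls of the 9. At E18.5 the Atoh7 probe set 1422929_s_at read, in log2 MAS5, 11.62, 12.27 and 11.70 in C57BL6/J, 11.97, 11.91 and 11.36 in RD7, 11.77, 13.04 and 12.37 in NOD.NON-H2-nb1, 12.16, 12.46 and 12.37 in CAST/EiJ, and 12.15 and 12.38 in AKR/J. At P30.5 it read 6.85, 5.95 and 5.75 in C57BL6/J, 7.05, 3.94 and 7.21 in RD7, 6.04, 5.67 and 6.42 in NOD.NON-H2-nb1, 6.86, 5.11 and 5.92 in CAST/EiJ, and 4.74, 5.22 and 5.98 in AKR/J. The lowest E18.5 array, at 11.36, was far above the highest P30.5 array, at 7.21. The change was -5.68 ± 0.56 (SE) on the log2 scale in C57BL6/J (limma, adjusted p = 6.38e-09), -5.68 in RD7, -6.35 in NOD.NON-H2-nb1, -6.37 in CAST/EiJ and -6.95 in AKR/J, a fall of 51.2-fold to 124-fold. The second probe set, 1450796_at, is in the RMA table, where the changes were between -3.49 and -2.63. Its MAS5 signals gave changes between -6.52 and -5.65, but they were very low at P30.5 (log2 2.45 to 4.21), and with signals under 16 set to 16 the changes were between -5.95 and -5.44.

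Neurog2, a proneural factor, is switched on in progenitors as they commit to becoming neurons. Its log2 MAS5 signal at E18.5 was 12.68, 12.43 and 12.53 in C57BL6/J, 12.37, 12.42 and 11.81 in RD7, 12.23, 12.68 and 12.90 in NOD.NON-H2-nb1, 12.27, 12.64 and 12.25 in CAST/EiJ, and 12.21 and 12.16 in AKR/J. The P30.5 values were 6.37, 7.10 and 6.44 in C57BL6/J, 6.10, 5.81 and 6.31 in RD7, 7.26, 6.60 and 6.74 in NOD.NON-H2-nb1, 7.23, 7.41 and 7.35 in CAST/EiJ, and 6.99, 6.68 and 6.66 in AKR/J. No array of the one age came near the other, with 11.81 as the lowest value at E18.5 and 7.41 as the highest at P30.5. The change was -5.91 ± 0.22 in C57BL6/J (adjusted p = 6.90e-17 by limma), -6.13 in RD7, -5.74 in NOD.NON-H2-nb1, -5.06 in CAST/EiJ and -5.41 in AKR/J, which is 33.4-fold to 69.9-fold. Leaving out any single array lost no call of Atoh7 or Neurog2.

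Lhx2 and Sox2 fell by smaller amounts and kept a high signal at P30.5. Lhx2 is a LIM homeodomain factor of the eye field that Müller glia keep. Its log2 MAS5 signal at E18.5 was 11.23, 11.02 and 11.12 in C57BL6/J, 11.45, 11.07 and 10.60 in RD7, 11.20, 11.05 and 10.69 in NOD.NON-H2-nb1, 11.21, 10.87 and 11.12 in CAST/EiJ, and 11.00 and 10.63 in AKR/J. The P30.5 values were 9.43, 8.87 and 8.85 in C57BL6/J, 9.10, 8.87 and 8.95 in RD7, 9.65, 8.68 and 8.85 in NOD.NON-H2-nb1, 9.08, 8.92 and 9.26 in CAST/EiJ, and 9.41, 9.39 and 9.33 in AKR/J. The 14 E18.5 arrays lay between 10.60 and 11.45 and the 15 P30.5 arrays between 8.68 and 9.65, without overlap. The change was -2.07 ± 0.22 in C57BL6/J (limma, adjusted p = 3.07e-08) and -2.07, -1.92, -1.98 and -1.44 in RD7, NOD.NON-H2-nb1, CAST/EiJ and AKR/J.

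Sox2 is a SOX factor that maintains neural progenitors and stays on in Müller glia and some amacrine cells. Its log2 MAS5 signal at E18.5 was 12.20, 12.21 and 12.04 in C57BL6/J, 12.04, 12.32 and 11.43 in RD7, 12.27, 12.43 and 11.91 in NOD.NON-H2-nb1, 12.15, 12.34 and 12.09 in CAST/EiJ, and 11.68 and 11.56 in AKR/J. The P30.5 values were 10.28, 10.56 and 10.48 in C57BL6/J, 10.09, 10.28 and 10.34 in RD7, 10.67, 10.65 and 10.36 in NOD.NON-H2-nb1, 10.71, 11.12 and 10.79 in CAST/EiJ, and 10.36, 10.74 and 10.33 in AKR/J. The lowest E18.5 array, RD7 replicate 3 at 11.43, was above the highest P30.5 array, a CAST/EiJ array at 11.12. The change was -1.71 ± 0.18 in C57BL6/J (limma, adjusted p = 3.06e-08), -1.69 in RD7, -1.65 in NOD.NON-H2-nb1, -1.32 in CAST/EiJ and -1.14 in AKR/J, a fall of 2.21-fold to 3.27-fold.

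The AKR/J calls of Lhx2, Sox2 and Six6 rested on 2 arrays at E18.5. Without replicate 1 at E18.5 the change of Lhx2 was -1.25 (limma, adjusted p = 0.00545), that of Sox2 was -1.08 (adjusted p = 0.00413) and that of Six6 was -1.14 (adjusted p = 0.00883), and none of them was a call. Sox2 was also lost without replicate 2 at E18.5, at -1.20 and an adjusted p of 0.00162. AKR/J then had 3 calls in place of 6, and 3 probe sets in place of 5 fell in every strain.

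**Figure D2:**
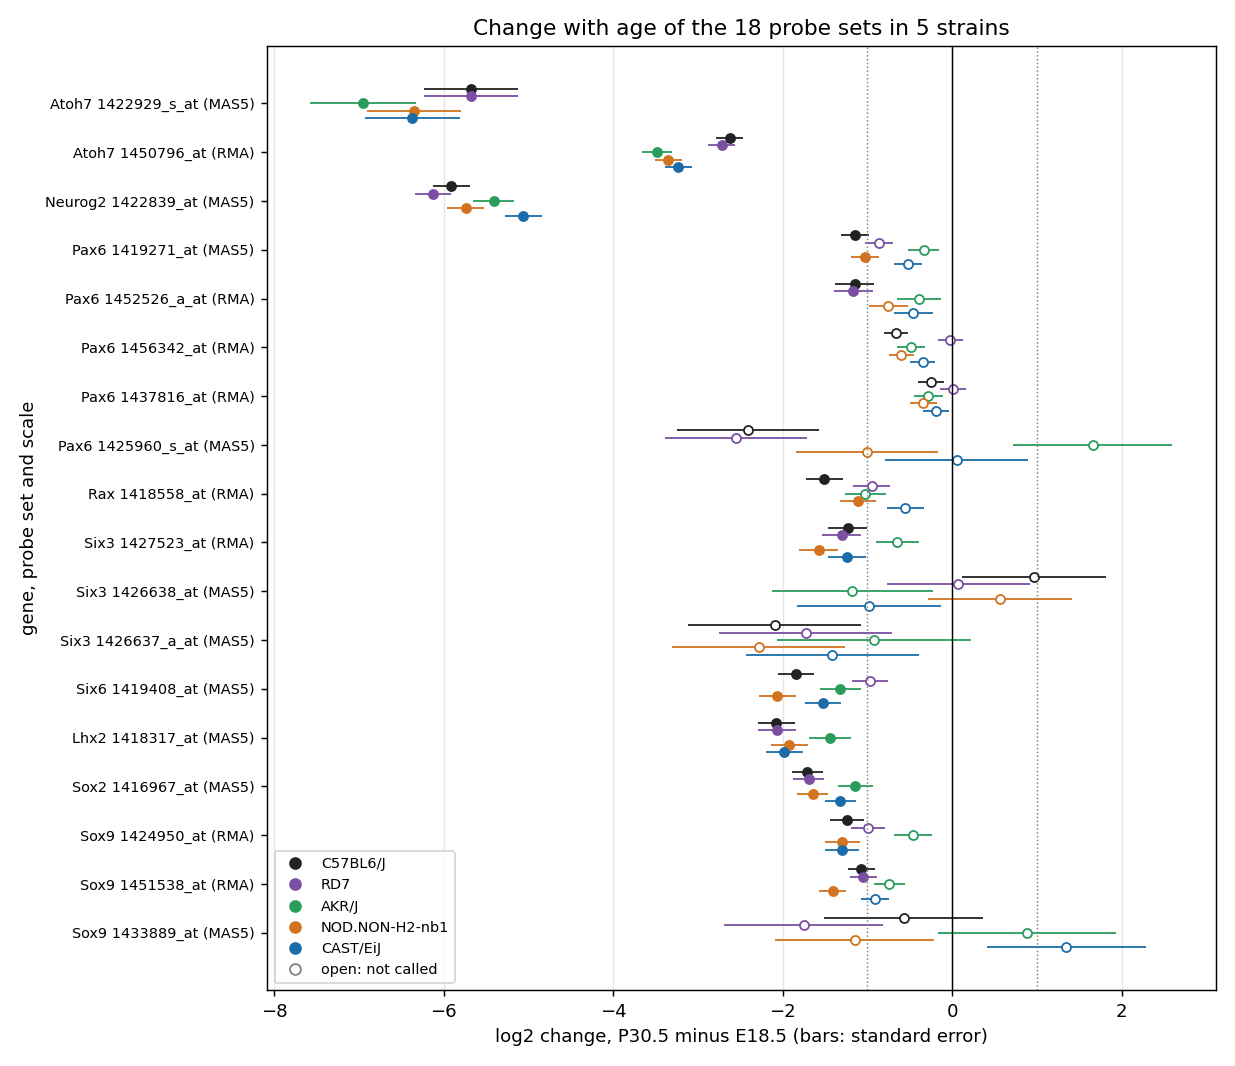
Log2 change from E18.5 to P30.5 with its standard error, for each probe set (y axis) in each of the 5 strains, with filled points for calls (adjusted p under 0.001 and at least 2-fold) and open points for the rest. The changes of Atoh7 and Neurog2 in MAS5 lie beyond -5, those of the other genes' called probe sets between -2.07 and -1.03, and the wide bars belong to probe sets of low signal.

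Six3 and Six6 are related homeodomain factors, of which Six3 acts earlier in the forebrain and eye and Six6 in the growth of the retina. The Six3 probe set 1427523_at read, in RMA at E18.5, 10.03, 9.85 and 9.88 in C57BL6/J, 9.90, 10.46 and 9.19 in RD7, 9.89, 10.07 and 9.73 in NOD.NON-H2-nb1, 9.72, 10.31 and 9.61 in CAST/EiJ, and 9.57 and 9.57 in AKR/J. At P30.5 it read 8.86, 8.72 and 8.49 in C57BL6/J, 8.85, 8.35 and 8.43 in RD7, 8.36, 8.30 and 8.31 in NOD.NON-H2-nb1, 8.50, 8.88 and 8.52 in CAST/EiJ, and 9.18, 8.66 and 8.93 in AKR/J. The ages came within a narrow margin of each other without overlap, with RD7 replicate 3 lowest at E18.5 (9.19) and an AKR/J array highest at P30.5 (9.18). Six3 changed by -1.23 ± 0.23 in C57BL6/J (limma, adjusted p = 9.08e-05), -1.30 in RD7, -1.58 in NOD.NON-H2-nb1 and -1.24 in CAST/EiJ, all of them falls by the rule, and its change in AKR/J was -0.64 (adjusted p = 0.0458). The call in C57BL6/J was lost without replicate 3 at P30.5 (-1.13, adjusted p = 0.00102), with MAS5 signals (-1.05, adjusted p = 0.00183) and with the surrounding tissue as a covariate (-1.14, adjusted p = 0.00117). That in RD7 was lost without replicate 2 at E18.5 (just short of 2-fold) and that in CAST/EiJ without replicate 2 at E18.5 (-1.03, adjusted p = 0.00145). The other Six3 probe sets, 1426637_a_at and 1426638_at, had low signals, with changes from -2.28 to -0.92 and from -1.18 to 0.96, and no call.

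Six6 fell with age in 4 strains, with changes of -1.84 ± 0.21 in C57BL6/J (limma, adjusted p = 1.32e-07), -2.06 in NOD.NON-H2-nb1, -1.52 in CAST/EiJ and -1.32 in AKR/J. In RD7 the change was -0.97 (adjusted p = 0.00101), just outside both thresholds. Without RD7 replicate 3 at E18.5 it was -1.17 (adjusted p = 0.000306) and without RD7 replicate 1 at P30.5 it was -1.11 (adjusted p = 0.000871), which are calls. Replicate 3 at E18.5 was the lowest array of RD7 in log2 MAS5 for the highest probe set of all 9 genes, and its muscle signal was 11.5. Replicate 2 at E18.5 had a muscle signal of 12.2, and was the lowest for 0 of the 9 genes and the highest for 4. Whether muscle RNA bears on these ranks was not tested. The RD7 count of calls was 11 in place of 8 without replicate 3 at E18.5. Six6 in RD7 was also a call with the surrounding tissue as a covariate, at -1.04.

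Rax, the homeobox gene that is among the first marks of the eye field, read in RMA at E18.5 11.37, 10.97 and 11.18 in C57BL6/J, 11.02, 11.06 and 10.09 in RD7, 10.95, 11.00 and 10.80 in NOD.NON-H2-nb1, 10.88, 11.04 and 10.91 in CAST/EiJ, and 10.68 and 10.32 in AKR/J. At P30.5 it read 9.72, 9.73 and 9.56 in C57BL6/J, 10.06, 9.69 and 9.58 in RD7, 10.15, 9.73 and 9.53 in NOD.NON-H2-nb1, 10.32, 10.60 and 10.25 in CAST/EiJ, and 9.87, 9.22 and 9.34 in AKR/J. Every P30.5 array of C57BL6/J was below every E18.5 array of that strain, and the 3 CAST/EiJ arrays were the highest of all strains at P30.5. Rax fell by 1.51 ± 0.22 in C57BL6/J (limma, adjusted p = 3.61e-06) and by 1.11 in NOD.NON-H2-nb1 (adjusted p = 0.000178). Its changes of -0.95 in RD7, -1.02 in AKR/J and -0.55 in CAST/EiJ were not calls. The NOD.NON-H2-nb1 call was lost without replicate 1 or 2 at E18.5 or replicate 2 or 3 at P30.5, with changes of -1.10 to -0.97. Rax in RD7 was a call without E18.5 replicate 3 (-1.27) or P30.5 replicate 1 (-1.09). In AKR/J it was a call without P30.5 replicate 1 (-1.22), without RD7 replicate 3 at E18.5, and without all RD7 arrays (both -1.02).

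Sox9 is the SOX factor of multipotent progenitors and of Müller glia, and outside the eye it directs the formation of cartilage. Probe set 1424950_at read in RMA at E18.5 8.62, 8.02 and 8.71 in C57BL6/J, 8.01, 8.73 and 8.25 in RD7, 7.89, 8.15 and 8.49 in NOD.NON-H2-nb1, 7.68, 7.70 and 7.85 in CAST/EiJ, and 8.12 and 8.32 in AKR/J. At P30.5 it read 7.28, 7.03 and 7.31 in C57BL6/J, 7.26, 7.45 and 7.30 in RD7, 7.03, 6.55 and 7.06 in NOD.NON-H2-nb1, 6.40, 6.14 and 6.79 in CAST/EiJ, and 7.71, 7.84 and 7.73 in AKR/J. The AKR/J arrays changed least and overlapped with E18.5 arrays of CAST/EiJ. It fell by 1.24 ± 0.20 in C57BL6/J (limma, adjusted p = 2.08e-05), fell by 1.29 in NOD.NON-H2-nb1 and fell by 1.30 in CAST/EiJ, and its change was just short of 2-fold in RD7 and -0.46 in AKR/J (adjusted p = 0.108). The RD7 change was a call without replicate 1 or 3 at E18.5 or replicate 2 at P30.5 (-1.15 to -1.04). In MAS5 this probe set was no call in either C57BL6/J (-0.85) or NOD.NON-H2-nb1 (-1.83). Probe set 1451538_at fell in C57BL6/J (-1.07), RD7 (-1.05) and NOD.NON-H2-nb1 (-1.41), and changed by -0.74 in AKR/J and -0.91 in CAST/EiJ. The first 2 of these calls were lost without the strain's replicate 2 at P30.5, both at a change just short of 2-fold (-0.95 and -0.97), and with MAS5 signals (-1.04 and -1.06, limma, adjusted p = 0.0129 and 0.0112). The RD7 call was also lost with RMA values centred on the array medians (-0.97) and without the arrays high in muscle RNA (-1.03, adjusted p = 0.00301). In CAST/EiJ this probe set was a call without replicate 3 at P30.5 (-1.04) and with MAS5 signals (-1.77). The third probe set, 1433889_at, had a low signal, changes from -1.75 to 1.35 and no call. The mean log2 signal of 6 cartilage genes at E18.5 was 6.84 to 7.62 in C57BL6/J and 7.50 to 8.46 in the other strains, and its part in the Sox9 values was not tested.

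**Figure D3:**
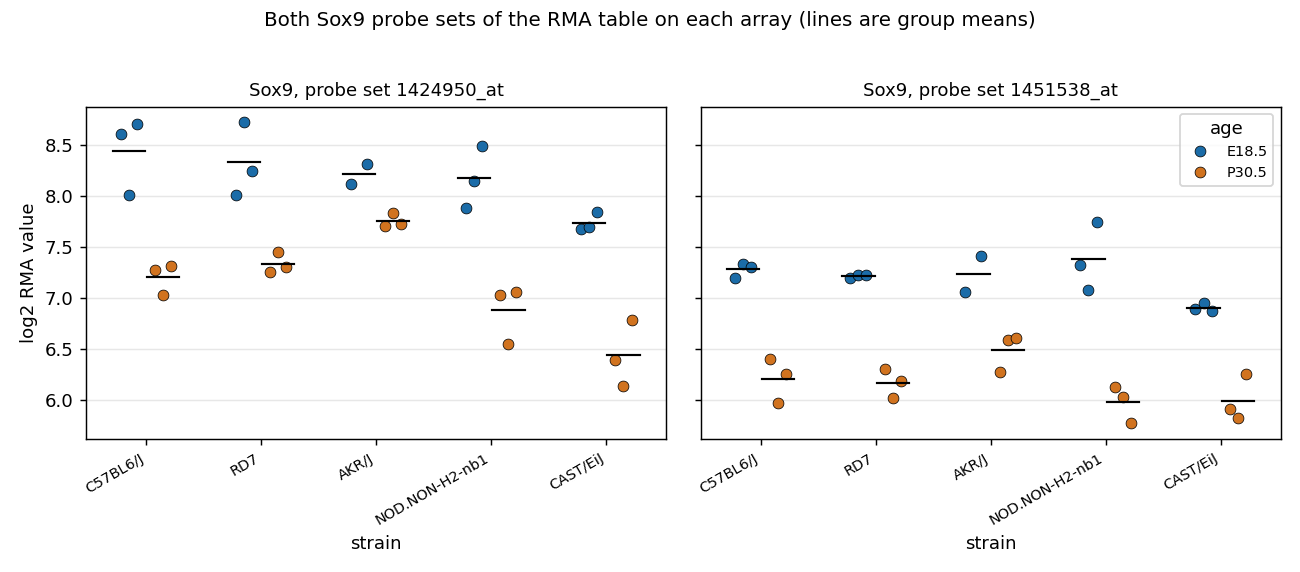
The Sox9 probe sets 1424950_at and 1451538_at on each array, with log2 RMA value on the y axis, strain on the x axis, age in colour and black lines for group means. Both are lower at P30.5 in every strain by the group means, least in AKR/J.

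Pax6, the paired homeodomain factor without which no eye forms, still had a high signal at P30.5. Its brightest probe set, 1419271_at, read in log2 MAS5 at E18.5 12.79, 13.23 and 12.89 in C57BL6/J, 12.89, 12.69 and 12.30 in RD7, 12.64, 13.11 and 12.92 in NOD.NON-H2-nb1, 12.42, 12.48 and 12.46 in CAST/EiJ, and 12.38 and 12.45 in AKR/J. At P30.5 it read 11.97, 11.67 and 11.85 in C57BL6/J, 11.50, 12.08 and 11.71 in RD7, 11.86, 11.78 and 11.95 in NOD.NON-H2-nb1, 11.86, 11.95 and 11.98 in CAST/EiJ, and 12.17, 12.17 and 11.90 in AKR/J. The ages did not overlap over the 29 arrays, with 12.30 as the lowest E18.5 value and 12.17 as the highest P30.5 value. It fell by 1.14 ± 0.16 in C57BL6/J (limma, adjusted p = 3.76e-06) and fell by 1.03 in NOD.NON-H2-nb1, and the changes of -0.86 in RD7, -0.33 in AKR/J and -0.52 in CAST/EiJ were not calls. The NOD.NON-H2-nb1 call was lost without replicate 2 at either age (-0.92 and -0.99), and both calls were lost with the surrounding tissue as a covariate (-0.98 and -0.96). In RD7 the change was a call without E18.5 replicate 3 or P30.5 replicate 2 (both -1.02) and without the arrays high in muscle RNA (-1.12).

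The other Pax6 probe sets gave smaller or unsteady values. Probe set 1452526_a_at fell in C57BL6/J (-1.15, limma, adjusted p = 0.000254) and RD7 (-1.17, adjusted p = 0.000228). These calls were lost with MAS5 signals and without any of C57BL6/J replicates 2 and 3 at E18.5 and 1 and 3 at P30.5 (-1.08 to -1.05), or without RD7 replicates 2 and 3 at E18.5 and 1 at P30.5 (-1.15 to -0.98). The C57BL6/J call was also lost with the surrounding tissue as a covariate (-0.96), and the RD7 call without the arrays high in muscle RNA (-0.95). Probe set 1456342_at changed by -0.66 to -0.02, 1437816_at by -0.34 to 0.01, and 1425960_s_at, of low signal, by -2.55 to 1.66, with no call among them. Over all members, 12 of 47 calls were lost when some single array was left out.

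Arrays high in muscle RNA had a lower median signal for 8 of the 9 members. Over the 6 E18.5 arrays with a muscle signal over 9 the median of Pax6 1419271_at was 12.43, against 12.89 over the other 8. For Neurog2 these medians were 12.22 and 12.59, for Rax 11.16 and 11.62 in MAS5, and for Sox9 1424950_at 8.87 and 8.60 in MAS5. The 2 sets of arrays are not balanced for strain, and what the surrounding tissue adds to any of these values was not tested beyond the alternatives given. With the surrounding tissue as a covariate, 9 probe sets fell in C57BL6/J, 9 in RD7, 10 in NOD.NON-H2-nb1, 8 in CAST/EiJ and 6 in AKR/J, and 6 fell in all strains.

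Of 22 further genes of progenitors and neurogenesis with a value, 16 fell in C57BL6/J, 17 in RD7, 15 in NOD.NON-H2-nb1, 15 in CAST/EiJ and 14 in AKR/J, and none rose. Fgf15, a growth factor of the embryonic retina, fell with changes of -10.96 to -7.19. Sox11, a SOX factor of new neurons, changed by -6.07 to -5.31, Ccnd1, the cyclin that drives retinal progenitors, by -5.97 to -4.63, and Sfrp2, a secreted Wnt inhibitor, by -5.03 to -3.73. The Notch targets Hes1 and Hes5 fell in all 5 strains, with changes of -2.40 to -1.55 and of -4.11 to -2.63. Neurod1, Neurod4, Otx2, Btg2 and Meis2 were not called in any strain, with Neurod1 at 0.17 to 0.88 and Otx2 at -0.50 to 0.42, both factors that photoreceptors keep.

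The median change over these 22 genes was -1.94, -1.89, -2.43, -2.11 and -1.77 in C57BL6/J, RD7, NOD.NON-H2-nb1, CAST/EiJ and AKR/J. All 9 genes of dividing cells fell in every strain, with medians of -6.80 to -5.12, among them Mki67, a marker of dividing cells, at -10.88 to -7.71 and Pcna, the sliding clamp of DNA replication, at -1.83 to -1.28. Rod genes moved the other way, with 6 of 6 up in every strain. Of 11 Müller glia markers, 8 rose in AKR/J and 7 in each other strain. Abca8a rose by 4.62 to 7.25 and Aqp4, the water channel of the glial endfeet, by 3.17 to 4.27, while Slc1a3 was between -0.12 and 0.58 and Vim between -1.40 and -0.30.

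Close relatives of the members did not move as one. Of 16 paralogues, 4 fell in C57BL6/J, 5 in RD7, 6 in NOD.NON-H2-nb1, 6 in CAST/EiJ and 2 in AKR/J, with medians from -0.78 to -0.06. Sox3, a relative of Sox2, fell in every strain, with changes of -2.96 to -1.86, and Neurog1 in 4 of 5. Lhx4, a LIM gene of photoreceptors and bipolar cells, rose in RD7, AKR/J and CAST/EiJ, by 1.80, 1.32 and 1.12. Six4 and Six2 were between -0.80 and 0.11 with no call. Of 12 partners and ganglion cell genes 6 fell in each strain, and Pou4f1, Eomes and Dlx1 fell in all 5. Pou4f1, a POU factor of ganglion cells that acts downstream of Atoh7, changed by -2.98 to -2.06, and Isl1, another gene of new ganglion cells, changed by -0.05 to 0.75 without a call. Of 7 ganglion cell markers, 2 rose and 2 fell in C57BL6/J and in NOD.NON-H2-nb1. In RD7 3 rose and 1 fell, in CAST/EiJ 2 rose and 1 fell, and in AKR/J 4 rose and 0 fell. The median changes of these markers were 0.21 to 1.08.

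**Figure D4:**
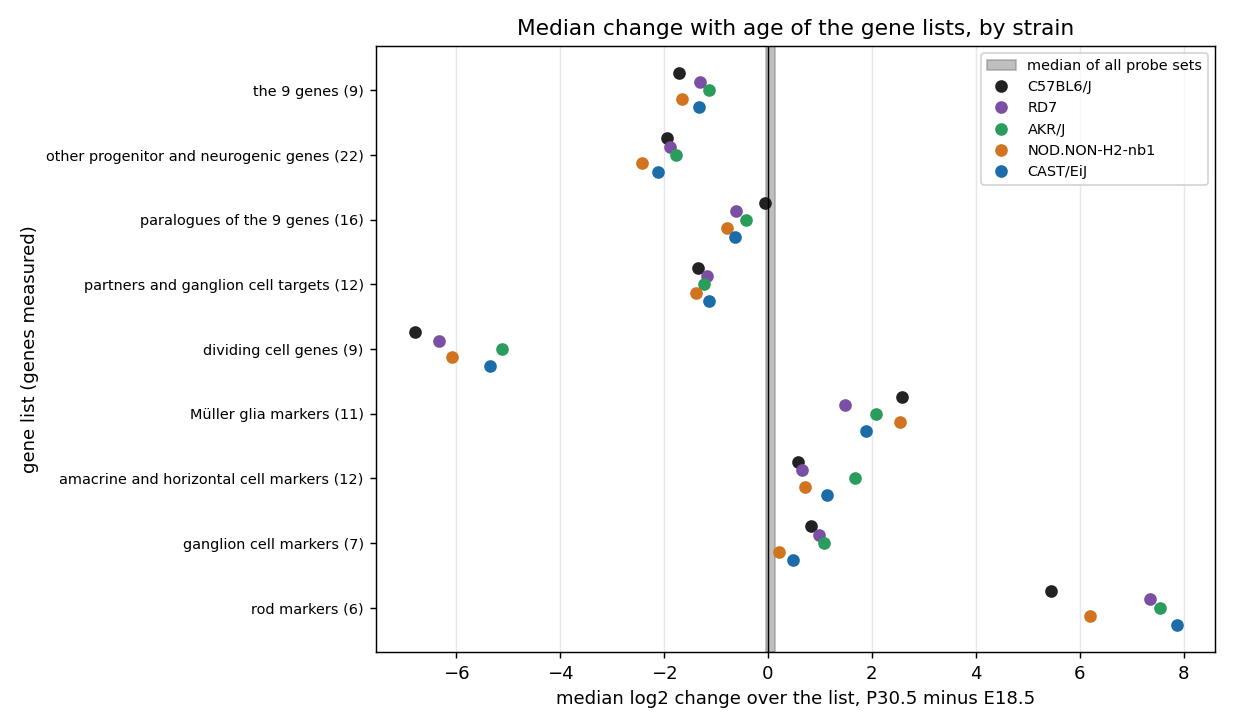
Median log2 change from E18.5 to P30.5 over the measured genes of each list (1 probe set per gene), in each strain, with the 9 members beside lists of related genes and of cell types. The lists of dividing cells, progenitor genes, members, partners and ganglion cell targets, and paralogues lie below 0 in every strain. Rod, Müller glia, amacrine and horizontal, and ganglion cell markers lie above 0. The medians of the partners list (-1.39 to -1.13) overlap with those of the members (-1.71 to -1.14).

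The strain comparison asked whether genetic background sets the level of these genes at a given age. All strains share the same C57BL6/J arrays as control. At E18.5 these arrays also differed from all others in rod and pigment epithelium signals. What this adds to the strain differences at that age was not tested. Of 18 probe sets in 4 strains, a single call was made at E18.5 and a single one at P30.5, both for Six6 in CAST/EiJ. Among all probe sets, the share called in either direction at E18.5 in RMA was 0.295% in RD7, 1.63% in NOD.NON-H2-nb1, 7.84% in CAST/EiJ and 4.38% in AKR/J, and 0.253%, 0.681%, 5.17% and 1.68% in MAS5. At P30.5 it was 0.330%, 1.64%, 6.73% and 1.69% in RMA and 0.124%, 0.687%, 4.20% and 0.747% in MAS5. With 1 call of 18, the members in CAST/EiJ are near that background.

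Six6 was lowest in CAST/EiJ at both ages. At E18.5 its log2 MAS5 signal was 11.91, 11.72 and 11.84 in C57BL6/J, 12.13, 11.68 and 11.29 in RD7, 11.03, 11.43 and 10.81 in NOD.NON-H2-nb1, 9.81, 10.18 and 9.63 in CAST/EiJ, and 11.73 and 11.37 in AKR/J. The P30.5 values were 10.21, 10.05 and 9.67 in C57BL6/J, 11.02, 10.59 and 10.59 in RD7, 9.30, 8.86 and 8.92 in NOD.NON-H2-nb1, 8.30, 8.66 and 8.08 in CAST/EiJ, and 10.43, 10.14 and 10.11 in AKR/J. The 3 CAST/EiJ arrays lay below the 11 other arrays at E18.5, with a gap of 0.63 to the nearest NOD.NON-H2-nb1 array, and below the 12 others at P30.5, with a gap of 0.20. The CAST/EiJ signal was lower than that of C57BL6/J at E18.5, with a difference of -1.95 ± 0.21 on the log2 scale (limma, adjusted p = 1.54e-07), or 3.86-fold, and at P30.5, with -1.63 ± 0.21 (adjusted p = 3.02e-06), or 3.10-fold. Between arrays of the same date in their titles the difference was -2.10 and -2.09 at E18.5 and -1.91, -1.39 and -1.59 at P30.5. Leaving out any array kept the call, with differences of -2.10 to -1.83 and -1.79 to -1.50. Six6 has 1 probe set, and its probes follow a reference sequence, so a base difference of CAST/EiJ under the probes and a lower transcript level cannot be told apart here.

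NOD.NON-H2-nb1 came next for Six6. Its difference from C57BL6/J was -0.73 (limma, adjusted p = 0.0732) at E18.5 and -0.95 (adjusted p = 0.0113) at P30.5, short of the threshold at both ages. At E18.5 its 3 arrays lay below those of C57BL6/J and overlapped with those of RD7 and AKR/J, and at P30.5 they lay below all 9 arrays of these strains, by 0.37. RD7 was highest at P30.5, at 0.75 above C57BL6/J (adjusted p = 0.197), and its 3 arrays lay above those of AKR/J. The order at E18.5 was, from the highest, C57BL6/J, RD7, AKR/J, NOD.NON-H2-nb1 and, below a gap, CAST/EiJ. At P30.5 it was RD7, AKR/J, C57BL6/J, NOD.NON-H2-nb1 and, lowest, CAST/EiJ, and among these neighbours C57BL6/J and AKR/J overlapped. The age change did not differ between CAST/EiJ and C57BL6/J by a called amount (interaction 0.32 ± 0.30, limma, adjusted p = 0.759).

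**Figure D5:**
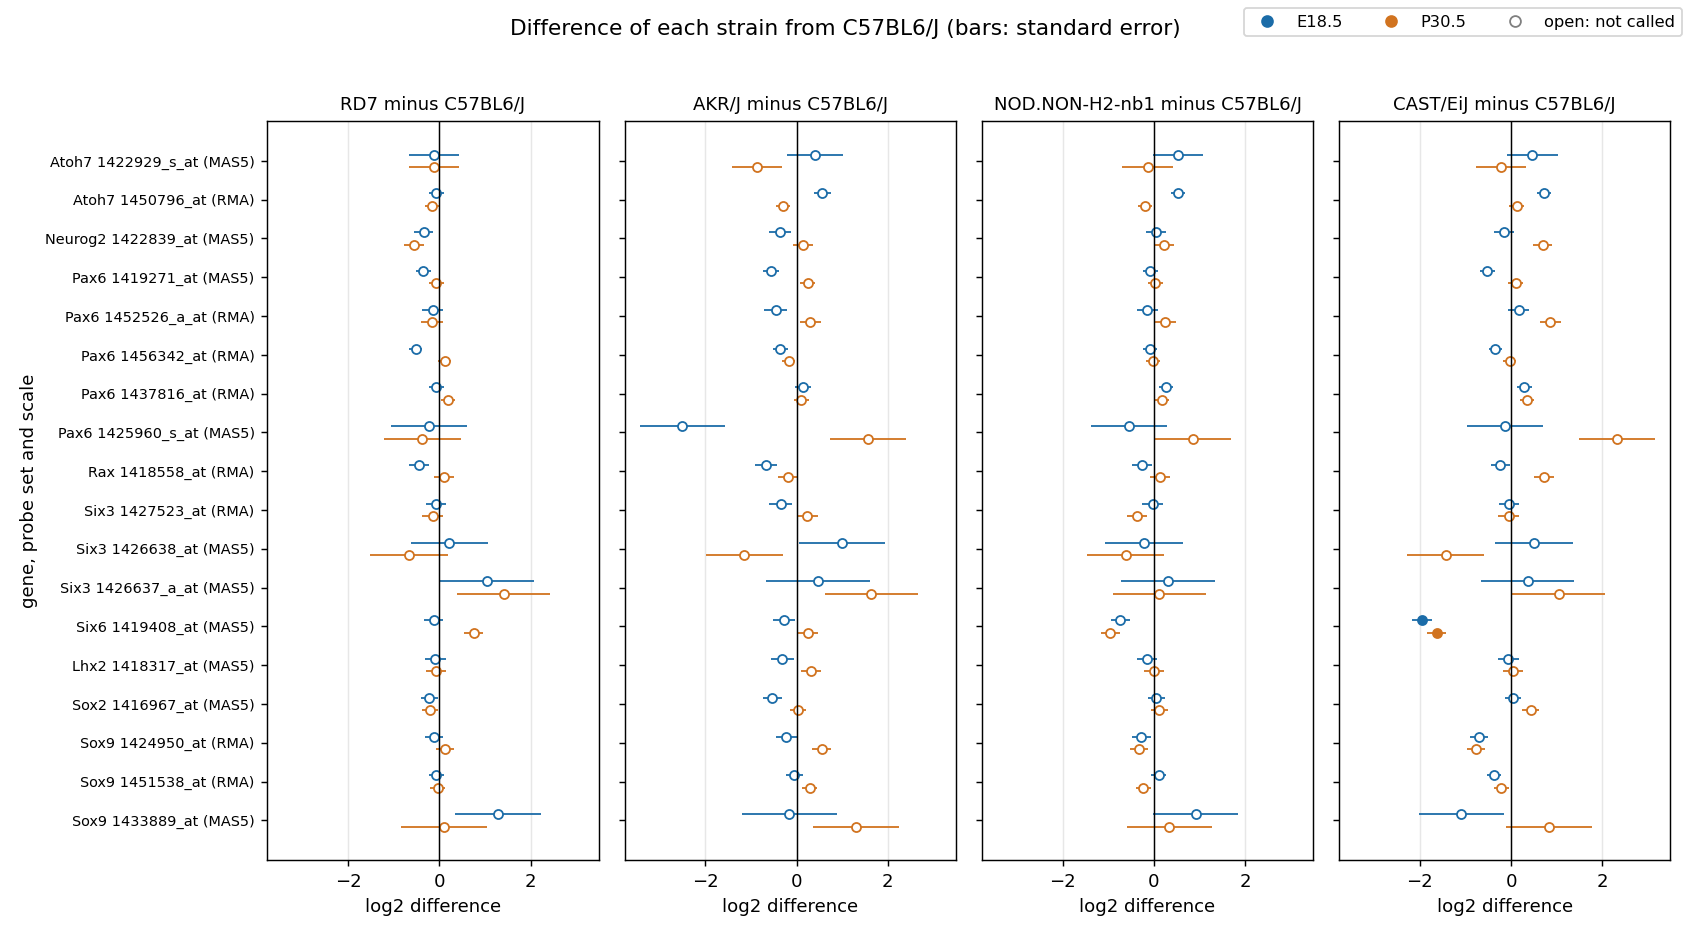
Log2 difference of each strain from C57BL6/J with its standard error, for the 18 probe sets (y axis) at E18.5 and P30.5, with filled points for calls. Only Six6 in CAST/EiJ is filled, at -1.95 and -1.63, and most other points of probe sets with a clear signal lie within 1 of 0.

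At a weaker limit, an adjusted p under 0.05 with no fold limit, 4 of 18 probe sets differed between CAST/EiJ and C57BL6/J at E18.5 and 5 of 18 at P30.5, against 27.1% and 24.8% of all probe sets in RMA and 15.3% and 12.9% in MAS5. Beside Six6 these were, at E18.5, Sox9 1424950_at (-0.70, limma, adjusted p = 0.0116), Pax6 1419271_at (-0.52, adjusted p = 0.0307) and Atoh7 1450796_at (0.73, adjusted p = 0.00128). At P30.5 they were Sox9 1424950_at (-0.77, adjusted p = 0.00668), Pax6 1452526_a_at (0.86, adjusted p = 0.00798), Rax (0.72, adjusted p = 0.0164) and Neurog2 (0.69, adjusted p = 0.0333). Sox9 was lower at both ages, while Pax6 was lower by 1 of its probe sets at E18.5 and higher by another at P30.5. In the other strains, Atoh7 1450796_at was higher in AKR/J at E18.5 (0.57, adjusted p = 0.0297), Pax6 1456342_at lower in RD7 at E18.5 (-0.52, adjusted p = 0.0312) and the P30.5 signal of Six6 lower in NOD.NON-H2-nb1, and none of the rest passed.

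The Sox9 difference depended on the summary. In RMA the CAST/EiJ arrays read 6.40, 6.14 and 6.79 for 1424950_at at P30.5 and the C57BL6/J arrays 7.28, 7.03 and 7.31, without overlap. In MAS5 the same probe set read 5.75, 3.38 and 6.44 against 7.29, 7.84 and 8.44, a difference of -2.66 that was a call (limma, adjusted p = 0.000211). Probe set 1451538_at of the same gene differed by -0.38 at E18.5 and -0.21 at P30.5 in RMA, and by -0.28 and -1.02 (limma, adjusted p = 0.0278) in MAS5, with no call. At P30.5 its CAST/EiJ arrays lay below those of every other strain in MAS5 and overlapped with them in RMA. For Sox9 too, a base difference of CAST/EiJ under the probes and a lower transcript level cannot be told apart here.

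The F test over all strains asked whether a probe set varied among the 5 strains at an age. At E18.5 it passed an adjusted p of 0.001 for Six6 (4.18e-07, limma) and Atoh7 1450796_at (6.36e-04), 2 of 18, against 13.7% of all probe sets in RMA and 6.87% in MAS5. At P30.5 it passed for Six6 (1.05e-08) and Sox9 1424950_at (1.96e-04), 2 of 18, against 13.8% and 6.71%. The Atoh7 probe set did not pass with MAS5 signals, with RMA values centred on the array medians or without the RD7 arrays. It did not pass with the date in the sample title as a fixed block either. Each of these left Six6 alone at E18.5. With that date as a random block the Atoh7 probe set passed at E18.5 (limma, adjusted p = 3.72e-04). It was also lost by leaving out 1 E18.5 array, which was replicate 1 or 3 of C57BL6/J or CAST/EiJ, 2 or 3 of RD7 or NOD.NON-H2-nb1, or 2 of AKR/J. Sox9 1424950_at was lost at P30.5 without AKR/J replicate 2 or CAST/EiJ replicate 1 or 2 of that age. With that date as a random block 4 passed at P30.5, Pax6 1452526_a_at (4.15e-04) and Neurog2 (8.87e-04) beside Six6 and Sox9.

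No change of a strain difference with age was called by limma for any of the 18 probe sets in 4 strains. Over all probe sets 0.169%, 0.177%, 0.869% and 0.236% were called in RMA for RD7, NOD.NON-H2-nb1, CAST/EiJ and AKR/J. In MAS5 the shares were 0.0576%, 0.0111%, 0.186% and 0.0333%. At the much looser limit of an unadjusted p under 0.05, 15 of the 72 tests passed. The share of all probe sets at that limit was not counted, so this count has no background beside it. The tests share the C57BL6/J arrays, and some are of the same gene, so they are not independent. The count cannot be read as more than all probe sets show. At an adjusted p under 0.05 a single probe set passed, Atoh7 1450796_at in AKR/J (-0.86 ± 0.24, limma, adjusted p = 0.0394). The CAST/EiJ interaction of Rax was 0.95 ± 0.31 in RMA (adjusted p = 0.0694), with age changes of -0.55 in CAST/EiJ and -1.51 in C57BL6/J.

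Genes of the related lists also differed between strains. In CAST/EiJ, Nr2e1, an orphan nuclear receptor that maintains progenitors, was higher than in C57BL6/J by 2.28 at E18.5 (limma, adjusted p = 4.05e-09) and by 1.28 at P30.5. Sfrp2 was higher by 1.14 and Otx2 at -1.10 at E18.5, Dlx1 and Dlx2, homeobox genes of inner retinal neurons, were higher by 1.87 and 1.09 at E18.5, and Pou4f1 was lower, at -1.43 and -1.94 at the 2 ages. Sox8, a relative of Sox9, was higher by 2.01 in CAST/EiJ at P30.5. In AKR/J at E18.5, Sox8 and Lhx9 were lower, at -2.35 and -1.83. These were 2 of 16 paralogues, against 4.38% of all probe sets called in RMA and 1.68% in MAS5. Both AKR/J arrays of that age were high in muscle RNA, so strain and surrounding tissue cannot be told apart there. In CAST/EiJ at E18.5, 2 of 22 progenitor genes were called higher and 1 lower, and 2 of 12 partners and ganglion cell genes higher and 1 lower. Of all probe sets, 7.84% were called there in RMA and 5.17% in MAS5. For genes lower in CAST/EiJ, such as Pou4f1, a base difference under the probes and a lower transcript level cannot be told apart.

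The members differed in how closely their signals followed each other over the 29 arrays, which share the age difference, so the correlations describe these arrays and were not tested. Over the highest probe set of each gene in MAS5, Atoh7 and Neurog2 had the highest correlation (Pearson's r = 0.970) and Rax and Sox9 the lowest (0.220). Six6 followed Sox9 at 0.774 and Sox2 at 0.525. Among all genes in RMA, those most like Neurog2 were Sgo1, Spdl1 and Cdk4 (0.994, 0.993 and 0.993), and those most like Atoh7 were Aspm, Cdca5 and E2f7 (0.982, 0.979 and 0.978). Sgo1, Spdl1, Aspm and Cdca5 act in the separation of chromosomes at mitosis. Those most like Sox2 were Nmral1, Ninl and Ccdc34 (0.985, 0.982 and 0.978), and those most like Lhx2 were Panx1, Dtx1 and Tbc1d16 (0.984, 0.982 and 0.981).

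For Six3 the nearest were Recql4, Klf13 and Arnt2 (0.953, 0.953 and 0.946), for Six6 Cdk6, Sf3a1 and Dclk1 (0.948, 0.948 and 0.934) and for Rax Pold2, Timm50 and Faap20 (0.943, 0.939 and 0.936). For Pax6 they were Tmem229a, Lonrf3 and Stard4 (0.939, 0.936 and 0.929). Sox9 had Cnp, Fads2 and C130071C03Rik (0.925, 0.905 and 0.900), the lowest values of the 9 members.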

How the data were processed

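Whole retinas of 5 mouse strains at 2 ages were measured on 29 arrays, 1 RNA pool each, and groups were taken from the strain and age in the labels. The authors deposited log2 RMA values for 25444 probe sets and MAS5 intensity signals on a linear scale for all 45101. The rule that left 43.6% out of RMA, the MAS5 scaling and the tool versions are not given in the sources used here, and the methods name another array model than the one the probe set names belong to. Of the probe sets, 34958 had 1 gene symbol in the platform annotation, 932 several and 9211 none. RMA values, and log2 MAS5 signals for the 10 member probe sets not in RMA, went into linear models of limma 3.58.1 (R 4.3.3, 1 mean per group, all arrays, a trended prior for MAS5), and p-values were adjusted by Benjamini-Hochberg within each contrast over all probe sets. Contrasts were P30.5 minus E18.5 in each strain, each strain minus C57BL6/J at each age, and their interaction. The study's thresholds were an adjusted p under 0.001 and 2-fold. The scripts were tested on simulated data. The few arrays per group limit the precision.

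The members and the gene lists were chosen with earlier results of these data known. Values per array are given for members that pass the call rule or whose probe sets disagree, up to 4 genes with the largest called changes per list (others named only with values, some of them chosen after their values were seen), and the 3 genes whose RMA values correlate highest with each member.

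The sample titles carry a date shared by arrays of different groups, 10, 7, 11 and 1 arrays per date. The mean correlation of the arrays' residuals about their group was 0.261 for 120 pairs of the same date and -0.121 for 258 other pairs, so the date was tried as a block. Other alternatives were MAS5 for every probe set, centring, a floor of 16 on MAS5 signals, no dim probe sets (under 6 in RMA), no trended or a robust prior, fewer groups in the fit, no RD7 arrays, a surrounding tissue covariate, no cross-matching probe sets, other thresholds and each array left out. Leaving out the E18.5 arrays with a muscle signal over 9 was chosen after seeing the data.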

Additional observations from a re-analysis of the deposited data

Results flagged for a closer look

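Differences between strains in the change with age were tested by the interaction in limma. At an adjusted p under 0.05, 2 values passed, and neither passed the call rule. For Atoh7 probe set 1450796_at in RMA, the fall with age was larger in AKR/J than in C57BL6/J by -0.86 ± 0.24 on the log2 scale (limma, adjusted p = 0.0394), with changes of -3.49 and -2.63. Between arrays of the same date in their titles the difference was -0.64 and -0.70 in RMA, and -0.43 and -0.18 in MAS5. For Rax probe set 1418558_at in MAS5, the change with age was smaller in CAST/EiJ than in C57BL6/J by 1.67 ± 0.41 (limma, adjusted p = 0.0360), with changes of -0.53 and -2.20. Between arrays of the same date it was 1.45 and 1.75. In RMA, which the report uses for Rax, the same difference was 0.95 (adjusted p = 0.0694).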

How the results depend on the processing

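No value of the 9 genes with an adjusted p under 0.05 changed its direction under any alternative. Of 136 values in both summaries, 24 had opposite signs in RMA and MAS5, none of them a change with age and none with an adjusted p under 0.05 in either. With an adjusted p under 0.05 and no fold limit, 13 probe sets were lower at P30.5 in RD7, 10 in AKR/J and 9 in all strains, 6 strain differences passed at each age and 1 interaction, and the F test passed for 4 at E18.5 and 5 at P30.5. At this limit the share over all probe sets is given only for the CAST/EiJ strain differences. The other counts have no background beside them and cannot be read as more than all probe sets show. With only the compared groups in the fit, or only arrays of the same strain, 5 fell in RD7 and 5 in CAST/EiJ, where Six3, Six6 and Sox9 1424950_at were lost. These fits hold fewer arrays. With MAS5 signals for every probe set, 2 strain differences were called at P30.5 and 1 probe set passed the F test at E18.5. That count was also 1 without the RD7 arrays, with centred RMA values and with the date as a replicate block, and the F test at P30.5 passed for 4 with the date as a random replicate block and for 3 with centred MAS5 signals or with the date as a replicate block. The date block, fixed or random, changed no other call. Leaving out each array in turn gave 10 to 12 falls in C57BL6/J, 6 to 11 in RD7, 3 to 7 in AKR/J, 9 to 11 in NOD.NON-H2-nb1, 7 to 9 in CAST/EiJ and 3 to 6 in all strains. It gave 1 to 1 strain differences at each age, 0 to 0 interactions, and F tests of 1 to 2 at E18.5 and 1 to 3 at P30.5. Without the arrays high in muscle RNA, AKR/J had no E18.5 array, and without RD7 there was no count over all strains. Probe sets of low signal had standard errors of up to 1.14 on the log2 scale, so smaller changes of them were not detectable.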
